A study of Mus musculus with 6 samples.

Results

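The semaphorins and their receptors, the plexins and neuropilins, were examined as a set of 31 genes out of 21755 protein-coding genes (autosomes and X). The set was chosen with earlier results of these data known, and its genes were named by family from the annotation. They comprised 7 secreted ligands (Sema3a to Sema3g), 13 membrane-bound ligands (Sema4a, Sema4b, Sema4c, Sema4d, Sema4f, Sema4g, Sema5a, Sema5b, Sema6a, Sema6b, Sema6c, Sema6d and Sema7a) and 11 receptors (Plxna1 to Plxna4, Plxnb1 to Plxnb3, Plxnc1, Plxnd1, Nrp1 and Nrp2). H3K4me1, the monomethylation of lysine 4 of histone H3 that marks active and poised enhancers, was profiled by CUT&Tag, in which an antibody guides a transposase to cut and tag the chromatin around the mark. The samples were 3 whisker pads of wild-type mouse embryos of strain B6/J2 at embryonic day 12, each freshly dissected and dissociated to single cells, and 3 IgG controls that were not analysed here. The study mapped the mark to ask whether a candidate enhancer carries it as whiskers begin to form. The pad is a mixture of epithelium, neural crest mesenchyme, nerve, vessel and muscle, so a mark present in fewer cells and a weaker mark in each cell cannot be told apart. No source says whether the pads came from different embryos, and the spread between replicates may be partly technical.

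Semaphorins are guidance cues that repel or attract growing axons, migrating neural crest cells and vessels. Class 3 semaphorins are secreted and mostly act through a neuropilin, which binds the ligand, and a class A plexin, which carries the signal into the cell, whereas the membrane-bound classes bind plexins directly. In the face they are best known for steering the trigeminal sensory axons that innervate the whisker pad.

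Each gene was given a window, its body plus 5 kb at each end, and carried the mark in a replicate if any peak of that deposited list touched the window. The strength of a peak was given as its percentile by total signal, the fragment pileup summed over the peak, within its own replicate's list, because the signals were not scaled to depth. The lists held 12969 to 16788 peaks and covered 57.1 to 63.3 Mb, with a summed signal of 744342185 to 985881531 pileup units. H3K4me1 replicates 2 and 3 have adult kidney as source name but whisker pad as title. Of 10 facial mesenchyme markers, 10 carried a peak in each replicate, beside 21.1% of genes of their length, and adult kidney markers did at 3, 3 and 1 of 10, beside 23.4%. Surface ectoderm markers carried a peak at 4, 4 and 3 of 7 genes (beside 29.2%) and muscle markers at 3, 3 and 3 of 4 (20.4%). Neuronal markers did so at 1, 2 and 1 of 8 (23.0%), nerve glia markers at 2, 2 and 0 of 5 (17.1%) and endothelial markers at 2, 1 and 1 of 6 (27.8%), so the kidney, neuronal and endothelial lists lay near the share of other genes. The 3 lists were of 1 condition, so no test between conditions was possible, and the members are described beside all genes and beside genes of similar length. The members and the marker lists were chosen with earlier results of these data known, so their shares are descriptions only.

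Most semaphorin and receptor genes carried H3K4me1. A peak lay at 25 of the 31 genes in replicate 1, at 24 in replicate 2 and at 22 in replicate 3, against 24.9, 22.6 and 19.6% of all protein-coding genes. The members' share was 76.3% ± 4.93 (SD, n = 3). Many of these genes are long, and long genes hold more peaks, so each was also set beside the protein-coding genes of its own length bin, 1 of 20 bins with equal numbers of genes. The genes of the members' bins carried a peak in 35.4% ± 1.79 (SD, n = 3) of cases, and the members' share was higher in each of the 3 replicates.

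All 3 replicates had a peak at 20 members, or 64.5%, against 15.5% of all protein-coding genes and 27.6% in the same length bins. A further 5 members had a peak in 2 replicates, Sema3d had one in replicate 3 alone, and Sema3e, Sema4f, Sema6b, Sema6c and Plxnb3 had none in any replicate. The median member with a peak had 3, 2 and 2 peaks in replicates 1, 2 and 3, against 1, 1 and 1 over all genes with a peak. These numbers of peaks were not matched for length. Members with a peak had a median length of 46.3, 43.3 and 119 kb, beside 34.2, 32.9 and 53.0 kb over all genes with a peak. The strongest peak of the median member stood at percentile 90.4, 86.5 and 81.7, against medians of 61.8, 62.7 and 60.6 over all genes with a peak. Averaged over the length bins of these members, the bins' medians were 65.0, 64.2 and 64.3, and 16 of 25, 15 of 24 and 16 of 22 members stood above the median of their own bin.

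**Figure D1:**
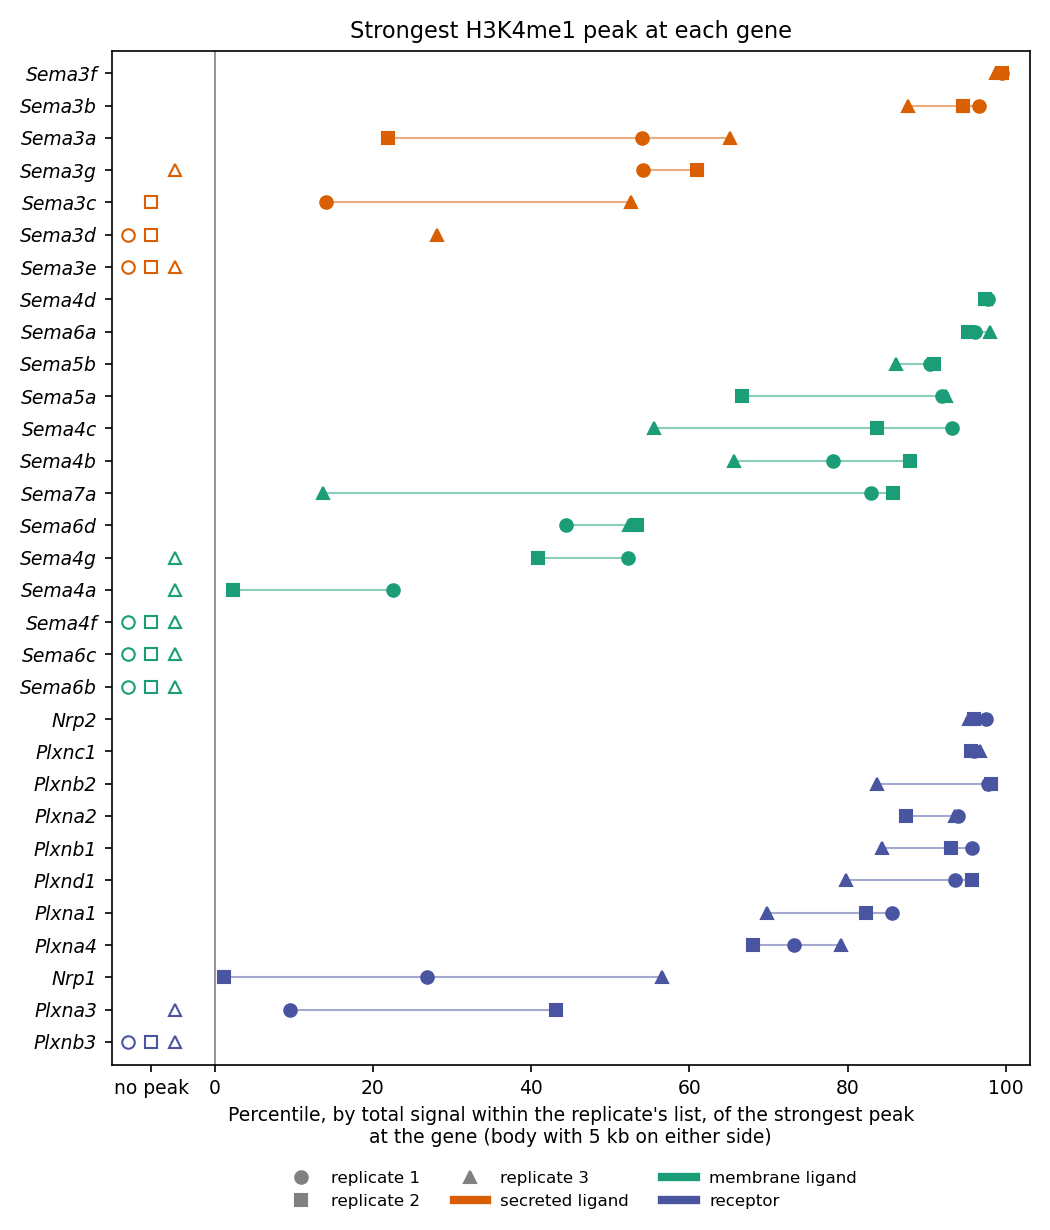
Strongest H3K4me1 peak at each of the 31 genes, as its percentile (horizontal axis) by total signal within the list of its replicate, with circles, squares and triangles for replicates 1, 2 and 3 and colours for the class. Open symbols on the left mark replicates without a peak. Sema3f, Sema4d, Sema6a, Nrp2 and Plxnc1 stood above percentile 95 in all 3 replicates, and 5 genes had no peak.

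Receptor genes carried a peak most often. In replicates 1, 2 and 3 a peak lay at 10, 10 and 9 of the 11 receptors, on average 87.9% ± 5.25 (SD, n = 3), beside 36.2% ± 1.86 in the same length bins. Membrane ligands had a peak at 10, 10 and 8 of 13 genes, a mean of 71.8% ± 8.88, beside 31.4% ± 1.96. Secreted ligands had one at 5, 4 and 5 of 7 genes, a mean of 66.7% ± 8.25, beside 41.5% ± 1.73. The share of receptors exceeded that of secreted ligands by 19.5, 33.8 and 10.4 percentage points in replicates 1, 2 and 3, and that of membrane ligands by 14.0, 14.0 and 20.3. Membrane and secreted ligands were not separated, since the difference was 5.49, 19.8 and -9.89 percentage points. The classes are small, and 1 more or 1 fewer gene with a peak moves a share by about as much as the replicates differ. Without the peaks that also touch another gene's window, receptors stood at 72.7% and membrane ligands at 69.2%. The lead of the receptors over membrane ligands thus rested largely on shared peaks.

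The order of the classes was the same for genes with a peak in all replicates. These were 9 of 11 receptors (81.8%, beside 28.0% in their length bins), 8 of 13 membrane ligands (61.5%, beside 23.9%) and 3 of 7 secreted ligands (42.9%, beside 33.7%). For the secreted ligands this was close to what genes of their length showed, and 1 gene makes up more than the difference.

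**Figure D2:**
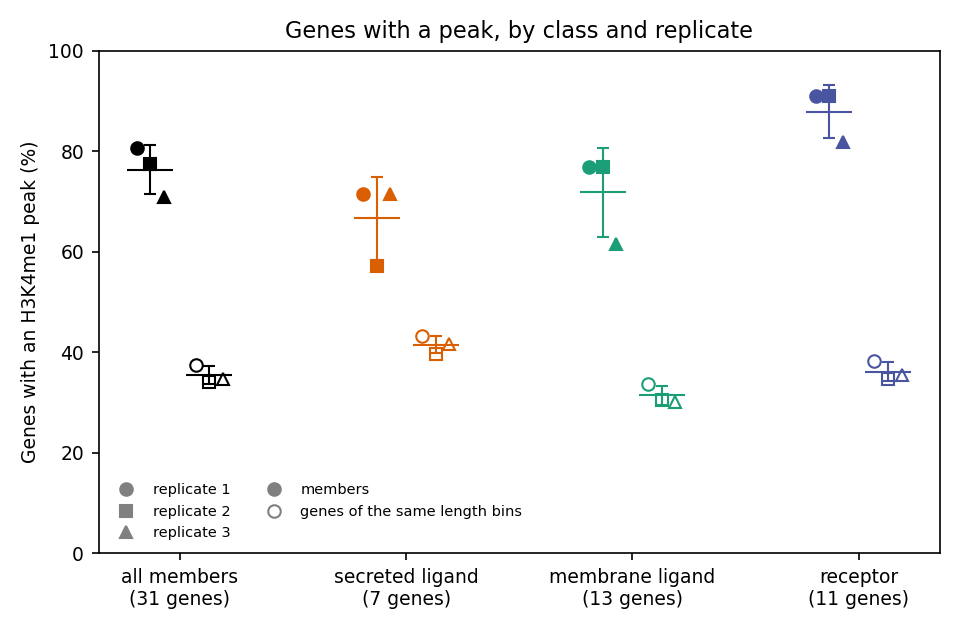
Percent of genes with an H3K4me1 peak (vertical axis, from 0) by class, with filled symbols for the members and open symbols for all genes of the same length bins. Circles, squares and triangles are replicates 1, 2 and 3, and the horizontal line and bars are their mean and SD. Members lie above their length bins in every class and replicate, with receptors highest at a mean of 87.9%.

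To show the chromatin that the strongest peaks rest on, the genomic sequence at the highest pileup is given for the 5 genes with the highest mean percentile whose sequence could be shown. Each is 201 bases of the plus strand of GRCm38 (mm10), read from the RefSeq assembly, centred on the median position of the highest pileup over the 3 replicates, and each lies in an intron of its gene. Capitals mark a match to a motif that was searched.
Sema3f chr9:107700103-107700303: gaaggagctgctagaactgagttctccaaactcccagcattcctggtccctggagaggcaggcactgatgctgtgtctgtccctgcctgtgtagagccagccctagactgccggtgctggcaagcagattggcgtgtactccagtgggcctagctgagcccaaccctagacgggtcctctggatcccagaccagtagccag
Sema4d chr13:51748401-51748601: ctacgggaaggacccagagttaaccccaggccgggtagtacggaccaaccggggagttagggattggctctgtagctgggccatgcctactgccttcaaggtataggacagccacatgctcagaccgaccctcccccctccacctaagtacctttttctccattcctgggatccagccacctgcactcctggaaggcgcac
Nrp2 chr1:62765420-62765620: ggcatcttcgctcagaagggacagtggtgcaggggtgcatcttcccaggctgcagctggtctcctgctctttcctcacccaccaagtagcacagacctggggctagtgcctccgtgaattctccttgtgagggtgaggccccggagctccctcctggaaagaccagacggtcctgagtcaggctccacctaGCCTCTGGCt
Plxnc1 chr10:94827821-94828021: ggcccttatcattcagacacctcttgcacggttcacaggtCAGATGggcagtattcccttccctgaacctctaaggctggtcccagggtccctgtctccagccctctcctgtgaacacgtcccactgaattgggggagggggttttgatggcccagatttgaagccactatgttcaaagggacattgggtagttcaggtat
Plxnb2 chr15:89177466-89177666: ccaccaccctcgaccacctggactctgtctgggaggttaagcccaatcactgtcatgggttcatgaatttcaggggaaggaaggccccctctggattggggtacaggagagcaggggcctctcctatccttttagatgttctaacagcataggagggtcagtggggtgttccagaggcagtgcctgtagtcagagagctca
The positions of the highest pileup in the 3 replicates lay within 414 bp of each other at Sema3f, 1948 bp at Sema4d, 1439 bp at Nrp2, 4644 bp at Plxnc1 and 1782 bp at Plxnb2, so the window at Plxnc1 is the least well placed. The GC content of the 5 windows was 53.7 to 61.2%. Of 4 motifs searched on both strands, the AP-2 motif GCCNNNGGC was found at Nrp2 and the Twist-type E-box CAGATG at Plxnc1. Over windows of the same length at the 49 member regions found in all replicates, GCCNNNGGC was in 5 (10.2%) and CAGATG in 7 (14.3%), beside 8.94 and 19.5% of 8916 such regions genome-wide. The TCF/LEF motif CTTTGAT and the homeodomain motif TAATTA were in 0 of the 49, beside 2.60 and 2.5%. These motif shares are descriptions of short windows.

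Among the secreted ligands, Sema3f and Sema3b had the highest mean percentiles, and the 4 genes on chromosome 5 had the lowest mean coverage of their windows. Sema3f, whose product repels axons that carry Nrp2, had its strongest peak at percentile 99.5, 99.5 and 98.7 in replicates 1, 2 and 3, the highest mean of the 31 members. Its total signal there was 451750, 643220 and 261644 pileup units. This region, chr9:107694520-107712039, was 17.5 kb long and ran from the introns over the 5′ end of the gene in replicates 1 and 2, and a second one of 7.18 kb lay upstream of it, with percentiles of 96.9, 97.0 and 92.7. Together the peaks covered 45.1, 49.2 and 37.6% of the window, more than in 99.3% of the genes of its length bin.

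Sema3b, a related secreted ligand 72.3 kb away on chromosome 9, had 1 region in all 3 replicates, at percentile 96.6, 94.5 and 87.6. It was 12.4 kb long, covered the start site and also reached the window of its neighbour Gnai2. Sema3g, a ligand best known from blood vessels, had its single intronic region at percentile 54.2 and 61.0 in replicates 1 and 2 and no peak in replicate 3. These 3 genes were short, at 11.6 to 29.0 kb, and their windows had a GC content of 52.6 to 54.7%.

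The other 4, Sema3a, Sema3c, Sema3d and Sema3e, lie within 5.35 Mb of chromosome 5, are 156 to 477 kb long and have windows with a GC content of 35.9 to 37.5%. Sema3a, the classic repellent of sensory axons, had 4, 2 and 8 peaks in replicates 1, 2 and 3, the strongest at percentile 54.1, 21.9 and 65.1. Of its 8 regions, 2 were in all replicates: one over the start site, at percentile 5.62, 21.9 and 55.3, and one in an intron 344 kb downstream. Peaks covered 2.69% ± 2.15 (SD, n = 3) of its window, beside a median of 1.22% in its length bin.

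Sema3c, a ligand of both neuropilins with a role in the outflow tract of the heart, had 2 intronic peaks in replicates 1 and 3 and none in replicate 2. Its strongest peak stood at percentile 14.1 and 52.6. Sema3d had 3 peaks in replicate 3 alone, at percentile 28.1 and below. Sema3e, which binds Plxnd1 without a neuropilin, had no peak in its window, nor in the 718 kb between its neighbouring genes. None of these 3 genes had a region common to all replicates.

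Among the membrane ligands, Sema4d, Sema6a and Sema5b had the highest mean percentiles. Sema4d, the ligand of Plxnb1, had 4, 3 and 2 peaks, of which the strongest reached percentile 97.8, 97.4 and 97.4. That region, chr13:51746826-51757580, lies in an intron with its highest pileup 45.2 kb from the start site and had a total signal of 229634, 311463 and 193599 units. It differed by less than 1 percentile between replicates. A second intronic region 33.2 kb from the start site was also in all 3, at percentile 53.9, 45.0 and 16.7.

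Sema6a, a transmembrane ligand of Plxna2 and Plxna4, had 9, 6 and 9 peaks, the strongest at percentile 96.1, 95.2 and 98.0. Of its 7 regions, all intronic, 6 were in all replicates, and the longest measured 18.5 kb. Peaks covered 33.4% ± 2.59 (SD, n = 3) of its window, more than in 97.6% of the genes of its length bin.

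The class 5 ligands, which carry thrombospondin repeats, differed in their layout. Sema5a had the most regions of any member, 13, of which 7 were in all replicates, and 10, 9 and 14 peaks in replicates 1, 2 and 3. Its strongest peak stood at percentile 92.0, 66.6 and 92.4. Sema5b had 3 regions, 2 of them in all replicates and 47.1 and 55.8 kb from the start site, and its strongest peak stood at percentile 90.4, 90.9 and 86.0. The peaks of Sema5a were spread up to 277 kb from the start site, whereas those of Sema5b lay close together.

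Sema4c, the ligand of Plxnb2, had 2, 3 and 2 peaks, the strongest at percentile 93.2, 83.7 and 55.6. Both of its regions reached a neighbouring gene, Ankrd39 downstream and Fam178b upstream. Sema4b had 3, 2 and 1 peaks with percentiles up to 78.1, 87.8 and 65.6. Sema7a, a lipid-anchored ligand of Plxnc1, had 1 region 11.8 kb from the start site in all replicates, at percentile 82.9, 85.7 and 13.7. At all 3 genes the lowest of these values was that of replicate 3.

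Sema6d, a ligand of Plxna1 and the longest member at 578 kb, had 2, 1 and 3 peaks and 1 region in all replicates, at percentile 44.4, 53.3 and 52.4. Sema4a and Sema4g each had 1 peak in replicates 1 and 2 and none in replicate 3. The percentiles were 22.5 and 2.27 at Sema4a and 52.3 and 40.9 at Sema4g. Sema4f, Sema6b and Sema6c, of 13.6 to 27.9 kb, had no peak in any replicate. At the length of these 3 genes, 12.9 to 21.8% of genes carried a peak in a given replicate and 10.7 to 11.9% in all replicates.

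Of the neuropilins, Nrp2 had strong peaks that recurred in all 3 replicates, and Nrp1 had weaker peaks that recurred in replicates 1 and 3 at most. Nrp2, the receptor of Sema3f, had 8, 7 and 8 peaks, the strongest at percentile 97.5, 96.0 and 95.4. This region, chr1:62762860-62777817, was 15.0 kb long, with its highest pileup in an intron 62.2 kb from the start site. Of the 8 regions of Nrp2, 6 were in all replicates, and peaks covered 30.7 to 34.6% of the window.

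Nrp1, the receptor of Sema3a and a co-receptor of vascular endothelial growth factor, had 5, 1 and 7 peaks, the strongest at percentile 26.8, 1.20 and 56.5. None of its 9 regions was in all replicates, but those 82.0, 86.8, 91.8 and 121 kb from the start site were in both replicates 1 and 3. In replicate 2 the only peak lay at the start site, with a total signal of 24520 units where the weakest peak of that list had 24247, and in replicates 1 and 3 all peaks were in introns between 38.4 and 121 kb from it. Nrp1 therefore counts among the 20 genes with a peak in all replicates without a common region, and 19 members had a region in all 3. Coverage of the window was 7.27, 1.23 and 13.4% at Nrp1, so that the replicates of the neuropilin genes did not overlap. The mean coverage of Nrp1 was still above that of 78.9% of the genes of its length bin, and that of Nrp2 above 97.4%.

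**Figure D3:**
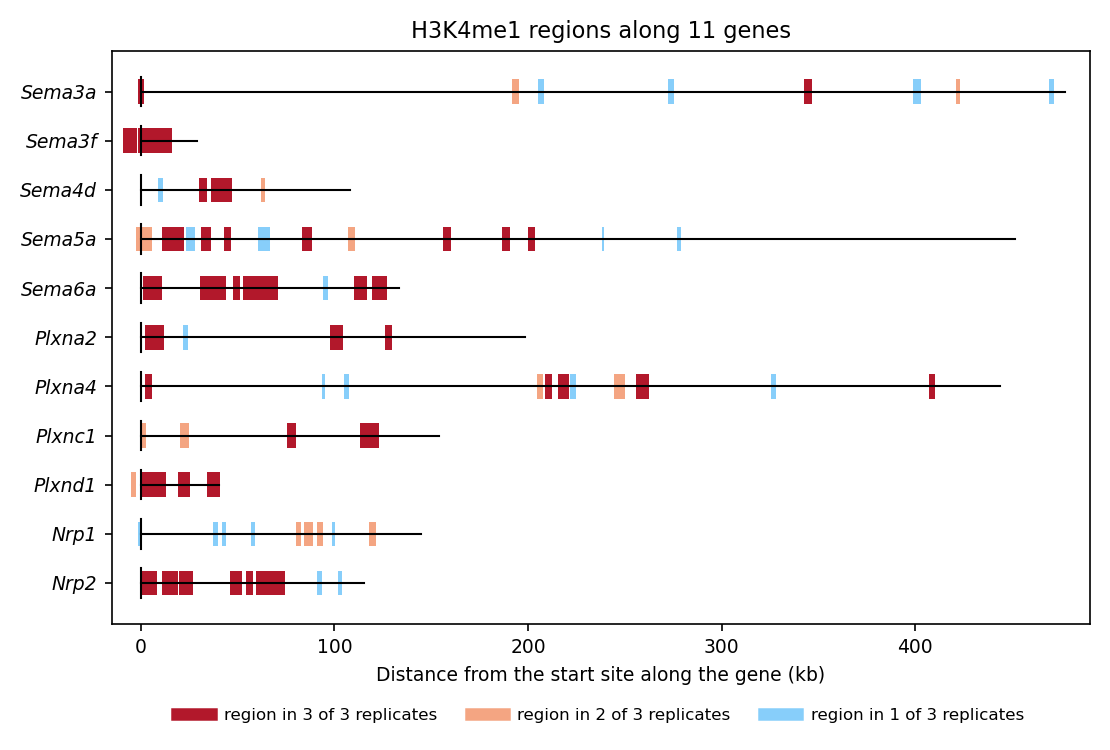
H3K4me1 regions (bars, to scale) along 11 genes, drawn from the start site at 0 in the direction of transcription, with the gene as a black line and distance in kb on the horizontal axis. Dark red, orange and blue bars are regions in 3, 2 and 1 of the 3 replicates. Nrp2 has 6 regions in all replicates, Sema6a 6 and Sema5a 7, whereas Nrp1 has 0 of 9.

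The plexins that pair with neuropilins, Plxna1 to Plxna4, differed among themselves. Plxna2 had 4, 3 and 3 peaks, the strongest 3.35 kb from the start site at percentile 93.9, 87.3 and 93.6, and 3 of its 4 regions were in all replicates. Plxna1 had 3, 3 and 2 peaks, the strongest at percentile 85.6, 82.3 and 69.8. Plxna4, which is 444 kb long, had 10, 7 and 6 peaks in 11 regions, of which 5 were in all replicates, and the strongest stood at percentile 73.3, 68.1 and 79.2. Plxna3, on the X chromosome, had a single region over its start site in replicates 1 and 2, at percentile 9.57 and 43.1, and none in replicate 3. Plxna3 was thus the only class A plexin without a region in all 3 lists.

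The class B plexins, which mostly bind class 4 semaphorins and act without a neuropilin, were marked at their start sites or not at all. Plxnb1 had 1 region of 10.7 kb over its start site in all replicates, at percentile 95.7, 93.1 and 84.3, which also reached the neighbour Ccdc51. Plxnb2 had 1 region of 17.5 kb, chr15:89167879-89185329, at percentile 97.8, 98.1 and 83.6, which covered the start site and reached Dennd6b. Plxnb3, 557 kb from Plxna3 on the X chromosome, had no peak in any replicate.

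Plxnc1, the receptor of Sema7a, had 4, 4 and 2 peaks, the strongest at percentile 95.9, 95.6 and 96.7. That region, chr10:94821795-94831591, was intronic with its highest pileup 117 kb from the start site and had a total signal of 167567, 244889 and 173479 units. Plxnd1, the receptor of Sema3e and known for patterning vessels, had 5, 5 and 4 peaks, the strongest at percentile 93.5, 95.7 and 79.7. Of its 4 regions, 3 were in all replicates, and the one at its 3′ end reached the window of the neighbour H1foo but not the gene itself. Peaks covered 42.3% ± 13.4 (SD, n = 3) of the window of Plxnd1, more than in 99.0% of the genes of its length bin.

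Of the 10 members with the highest mean percentile, from 89.6 for Plxnd1 to 99.3 for Sema3f, 6 were receptors, 2 secreted ligands and 2 membrane ligands. These classes make up 11, 7 and 13 of the 31 members.

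The share of the window under peaks relates the mark to the size of each gene. Among members, 11, or 35.5%, were among the 4.96% of protein-coding genes whose coverage exceeded that of at least 95% of their length bin. They were 5 receptors (Plxna1, Plxnb1, Plxnb2, Plxnd1 and Nrp2), 4 membrane ligands (Sema4b, Sema4c, Sema6a and Sema7a) and 2 secreted ligands (Sema3b and Sema3f). The widest coverage was at Sema4c, with 59.7% ± 26.4 (SD, n = 3), of which both regions are shared with neighbours, followed by Sema3b with 49.0% ± 7.72 and Sema3f with 44.0% ± 5.92. Apart from Nrp2 and Sema6a, these were genes of under 50 kb.

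**Figure D4:**
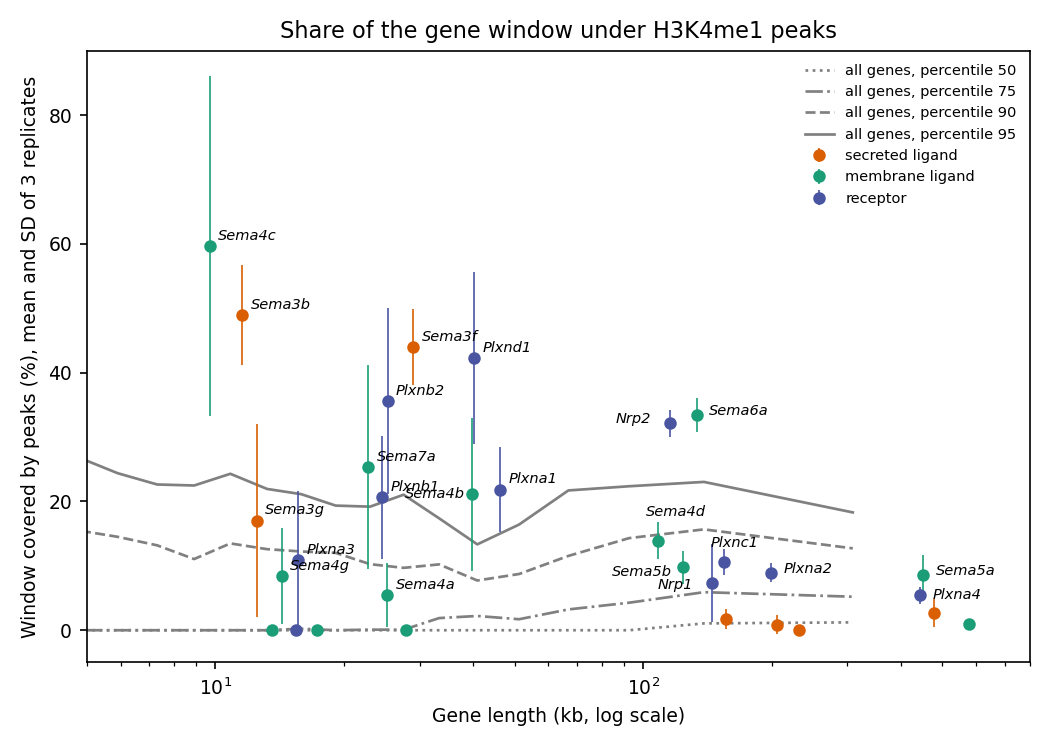
Share of each gene's window covered by H3K4me1 peaks (vertical axis, percent, mean and SD of 3 replicates) against gene length (horizontal axis, kb, log scale), coloured by class. Grey lines are percentiles 50, 75, 90 and 95 of all protein-coding genes in each of the 20 length bins. Sema4c, Sema3b, Sema3f and Plxnd1 have the widest coverage, at 59.7 to 42.3%, and Nrp2 and Sema6a stand above the other long genes.

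Levels were also compared per length, as the signal of the peaks at a gene in parts per 10000 of its list, per 100 kb of window. Sema3f had 20.2, 24.4 and 13.2 in replicates 1, 2 and 3, which averaged 19.2 ± 5.65 (SD, n = 3), and its replicates all lay above those of the next member. Next came Sema4c with 9.45 ± 3.80, Sema3b with 9.30 ± 3.28, Plxnd1 with 8.88 ± 3.54 and Plxnb2 with 7.61 ± 3.40. Sema6a had 5.97 ± 1.55, Nrp2 5.56 ± 0.187 and Plxnb1 5.51 ± 2.17. In the order of the 26 members with a peak, the replicates of neighbours overlapped in 24 of 25 steps, so that only Sema3f was set apart from the member below it. The lowest level was that of Sema6d, at 0.121 ± 0.0607. The median member stood at 1.48 over its window, and at 0.894 when the stretch out to the neighbouring genes was counted.

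Most regions lay in introns and away from start sites. The distances from start sites were much like those at other genes of the same length, and the intron share was not matched for length. The peaks at the 31 genes merged into 100 regions, of which 92 had their highest pileup in an intron, 3 in an exon, 4 upstream and 1 downstream. Introns make up 88.0% of the bases of the members' windows, and 83.3% of all regions touching a protein-coding gene's window had their highest pileup in an intron, so the share is close to the background. Of the 100 regions, 19 had the highest pileup within 5 kb of the start site and 54 had it more than 50 kb away, beside 14.7 and 56.2% in the members' length bins. Of the 46 regions at receptors, 23 were in all replicates, as were 21 of 37 at membrane ligands and 5 of 17 at secreted ligands. Over all members 49.0% of regions were in all replicates, beside 46.3% of all 19251 regions. The members' regions thus recurred about as often as regions elsewhere.

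Peaks within 1 kb of the start site were found at 12, 13 and 5 members in replicates 1, 2 and 3, against 9.65, 9.66 and 6.18% of all protein-coding genes. They were in all replicates at Sema3a, Sema3b, Plxnb1 and Plxnb2, or 12.9% of members, beside 4.04% of all genes and 4.69% in the same length bins. Members also carried peaks of any kind more often. Of genes with a peak in all replicates, 4 of 20 members and 879 of 3374 genes had a start-site peak in all. By replicate, 12 of 25, 13 of 24 and 5 of 22 members with a peak had one there. The shares over all genes with a peak were 38.8, 42.7 and 31.6%. The count of 4 members rose to 9 with 2.5 kb on either side, beside 6.14% of all genes. It was 7 when any annotated start site of the gene was allowed, beside 6.17% of all genes. Without replicate 3 it was 11, but a peak was then required in 2 lists only, so the count could not fall. Sema3f, Sema4c, Plxna1, Plxnc1 and Plxnd1 were among the genes with a start-site peak in replicates 1 and 2 but not 3.

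The differences between replicates went with base composition. Sema3g, Sema4a, Sema4g and Plxna3, which had a peak in replicates 1 and 2 but not 3, have windows with a GC content of 48.5 to 52.6%. Sema3c, found in replicates 1 and 3, and Sema3d, found in replicate 3, have 37.5 and 36.5%. Among the regions, the 13 in replicates 1 and 2 alone had a median GC content of 54.4% and the 18 in replicate 3 alone 40.5%, and over all regions the values were 52.4 and 41.5%. Across the 20 members with a peak in all replicates, Spearman's rho between the GC content of the window and the log2 ratio of relative signal in replicate 3 over replicate 2 was -0.84, and it was -0.77 across the 3374 protein-coding genes with a peak in all replicates. For replicate 1 over replicate 2 the values were -0.83 and -0.29. These genes share the same 3 libraries. The log2 ratio ran from 3.33 at Nrp1 and 2.60 at Sema3a to -1.99 at Sema7a, whereas Nrp2, at -0.09, and Plxna4, at -0.06, were level. The part of base composition in the presence or absence of single members was not tested.

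**Figure D5:**
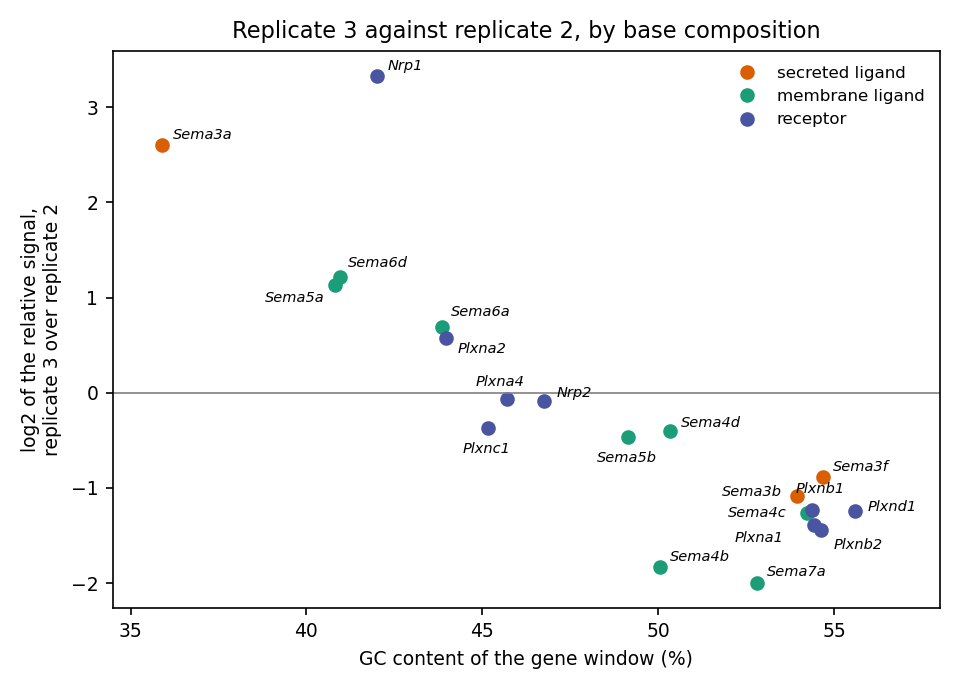
Log2 ratio of relative signal in replicate 3 over replicate 2 (vertical axis) against the GC content of the gene window (horizontal axis, percent) for the 20 members with a peak in all replicates, coloured by class. The ratio falls from 2.60 at Sema3a, with 35.9% GC, to -1.25 at Plxnd1, with 55.6% GC, and Nrp1 lies above the other points at 3.33.

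Beyond the ligands and receptors, 30 genes of co-receptors, alternative ligands and transducers of semaphorin signals were examined in the same way. A peak lay at 19, 16 and 16 of them in replicates 1, 2 and 3. All replicates had a peak at 14, or 46.7%, beside 26.1% in the same length bins and the 15.5% of all genes given above, while 11 had none in any replicate.

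The 5 highest by mean percentile were Farp1, Ptk7, Fyn, Gipc1 and Mical2. Farp1, an exchange factor that binds class A plexins, had 16, 14 and 11 peaks, with the strongest at percentile 99.5, 99.3 and 99.1. Ptk7, a transmembrane pseudokinase reported as a plexin co-receptor, had 3, 2 and 3 peaks and reached percentile 99.5, 99.5 and 99.1. Fyn, a kinase in the Sema3a response, had 16, 12 and 14 peaks up to percentile 98.4, 99.2 and 97.4. Gipc1, an adaptor that binds neuropilins and plexins, reached 98.4, 98.3 and 86.8, and Mical2, an actin oxidase of the family that plexins recruit, 94.4, 91.1 and 92.9. Farp1, Ptk7 and Fyn stood above percentile 97 in all replicates, whereas Gipc1 was lower in replicate 3.

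Vegfa, the growth factor that shares Nrp1 with Sema3a, reached percentile 88.4, 84.8 and 79.3, Cdk5 83.5, 86.6 and 62.8, Mical3 83.9, 87.7 and 27.3, and Chl1 92.6, 52.6 and 69.0. The peak at Chl1 touched only the edge of its window. Arhgef11, Rac1, Met, Fes and Dpysl3 also had a peak in all replicates. Kdr and Flt1, the receptors of Vegfa on endothelium, had a peak in 1 and 2 replicates. No peak was found at Rhoa, Itgb1, Itga1, Erbb2, L1cam, Cd72, Farp2, Rnd1, Crmp1, Dpysl2 or Dpysl4. Dpysl5 and Mical1 had one in replicates 1 and 2, and Arhgef12 in replicates 1 and 3.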

How the data were processed

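H3K4me1 was profiled by CUT&Tag in 3 whisker pads, and the 3 IgG samples were not analysed here. Per the labels, the submitters' processing notes name mm10, Bowtie2 2.3, SAMtools 0.1.19, bedtools and SEACR 1.3. The authors called peaks in each replicate without IgG, in stringent mode, and kept the top 1% of signal blocks. The number of peaks therefore follows the number of blocks and measures no enrichment. The deposited total and maximum signal of each peak are fragment pileups in whole numbers, not scaled to depth. The treatment of duplicate reads is not given in the sources used here, and the depth reached by each library was not measured.

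Genes were the protein-coding genes of GENCODE for GRCm38, and all peaks ended within the GRCm38 chromosomes. Coordinates are 1-based. Peaks overlapping by at least 1 bp were merged into regions. Overlaps, percentiles, 20 length bins and base composition were computed with Python 3.11.15, pandas 2.3.3, numpy 2.4.6 and pysam 0.24.0, and the overlap code was tested on simulated data. The length bin share is the mean, over the members, of the share of genes with a peak in each member's bin. No test was made, because the members and lists were chosen with earlier results of these data known and a second group was not analysed here. All members were to be named. Those described in depth were the 10 with the highest mean percentile, those without a peak and those whose presence differed between replicates. Samples were grouped by title. Alternatives covered the window, the strength of peaks, shared peaks, the start-site window and leaving out each replicate.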

Additional observations from a re-analysis of the deposited data

How the results depend on the processing

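Of 77 alternative values for 11 results, 61 lay within the replicate SD or, for counts, within 1.5 times. For results that are means over the 3 replicates, a value without 1 replicate cannot fall outside that SD. Such values are among the 61 by construction, so this count does not measure robustness. Restricted to the stronger 50% of the peaks, members with a peak made up 63.4% in all, 52.4% of secreted ligands, 59.0% of membrane ligands and 75.8% of receptors, beside 23.6, 29.1, 20.5 and 23.9% in the length bins. With the strongest 10000 peaks it was 66.7% for all members, 52.4% for secreted ligands and 78.8% for receptors. Their length bins then stood at 28.4, 34.3 and 28.9%. When peaks touching another gene's window were left out, the share was 66.7% for all members and 52.4% for secreted ligands. It was then 69.2% for membrane ligands and 72.7% for receptors, so these 2 classes lay close together. The length bins of all members, secreted ligands, membrane ligands and receptors stood at 29.8, 36.0, 25.7 and 30.7%. The members' share exceeded that of their length bins under each alternative run. The start-site count was 9 with 2.5 kb on either side and 7 with any start site of the gene, beside 6.14 and 6.17% of all genes. The median relative signal was 0.894 out to the neighbouring genes.

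Leaving out each replicate in turn gave 74.2 to 79.0% for all members, 64.3 to 71.4% for secreted ligands, 69.2 to 76.9% for membrane ligands and 86.4 to 90.9% for receptors. Their length bins then stood at 34.3 to 36.0, 40.7 to 42.4, 30.3 to 32.1 and 35.1 to 36.9%. A peak in all remaining replicates was found at 20 to 24 members, and a start-site peak at 4 to 11. These counts need a peak in 2 lists in place of 3, so they could not fall. The share of member regions in all remaining replicates was 52.0 to 75.3%, beside 55.4 to 68.4% of all regions. The highest start-site count and the highest region shares were those without replicate 3. Further alternatives were chosen after seeing the data. Replicate 1 by itself, whose source name is the whisker pad, gave 80.6% for all members, beside 37.4% in the length bins. Overlapping peaks in all replicates lay at 19 members, beside 15.5% of all genes. No paired analysis was possible because matching replicate numbers are carried by IgG samples alone, which were not analysed here.

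Peaks were called without IgG, so regions where the transposase cuts without the antibody cannot be told apart from marked ones. A gene without a peak is a gene without signal above the weakest peak kept in that list.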

Other observations

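Several members had H3K4me1 regions outside the gene body, out to the neighbouring genes (at most 500 kb on each side). The stretches differ in length and were not set beside those of other genes. Around Nrp2 the count of regions was 15, of which 11 were in all replicates, and 7 lay outside the gene with 5 of these in all replicates. The stretch around Plxna2 held 5 regions outside the gene, 3 of them in all replicates, and that around Plxna1 held 4 with 2 in all replicates. Those around Sema3f and Sema4d held 3 each, all in every replicate. At Sema3f they include the upstream region of 7.18 kb described above. Nrp1 had 2 regions outside its body, both in all replicates, in contrast to the 0 of 9 at the gene. The stretches around Sema3e, Sema4f, Sema6c and Plxnb3 held no peak in any replicate, and that around Sema6b held 1 in replicate 2. A region between genes cannot be assigned to either neighbour from these data.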
